A study of Homo sapiens with 12 samples.

Results

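Levels of 10 genes of the NF-kB pathway were examined: the subunit genes RELA, RELB, NFKB1 and NFKB2, the inhibitor genes NFKBIA and NFKBIE, the feedback genes TNFAIP3 and BIRC3, and the cytokine genes CXCL8 and IL6. They were chosen by symbol from the 40295 gene identifiers of the table, and each symbol matched 1 identifier. Transcript counts were compared in 12 libraries of 2 human cell lines. TOV-112D, an ovarian cancer line that carries the p53 mutant R175H, was labelled as treated for 3 h with the solvent DMSO, with the compound UCI-1001 or with its analog UCI-1014, with 2 libraries in each group. Saos-2, an osteosarcoma line that lacks p53, was compared as p53-null cells and as cells with wild-type p53 (p53-WT), with 3 libraries in each group, all labelled as a 16 h induction. Per the study's methods the p53-WT line was stably transduced with a doxycycline-inducible p53, while the null cells were the parental line, so p53 and the making of the line cannot be told apart. The sources used here do not say whether the line was 1 clone or whether the p53-null cells also received doxycycline, nor do they give the dose of UCI-1014.

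NF-kB is a family of dimeric transcription factors. In a resting cell the inhibitor proteins of the IkB family hold the dimers in the cytoplasm. Signals from receptors such as those for TNF activate the IkB kinases, the inhibitor is degraded, and the dimers enter the nucleus. Several of the genes they switch on act back on the pathway: new IkB protein recaptures the dimers, and TNFAIP3 (A20) edits the ubiquitin chains that carry the signal. A slower, non-canonical arm runs through the kinase NIK, made from MAP3K14, and the processing of the NFKB2 product to its shorter active form.

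Total counts per library lay between 17762027 and 24629558. As a check of the labels, CDKN1A, the p53 target that encodes p21, rose from 64.7 ± 12.6 CPM (SD, n = 3) in p53-null to 8334 CPM in p53-WT. CPM are counts per 1000000 counts of a library, after trimmed-mean (TMM) scaling within a cell line. Replicate 1 of each Saos-2 group stood apart from the other replicates of its group, where chi-square values divided by their degrees of freedom were 23.6 to 39.9, against 3.43 and 4.25 between the others. Of 9 ovarian carcinoma markers, 3 exceeded 1 CPM in TOV-112D (EPCAM, CDH1 and WT1), and KRT18 had no count there. The summed level of that list was 4.17 to 6.67 CPM in TOV-112D and 722 to 1090 CPM in Saos-2, where PAX8, KRT8, KRT18 and WT1 exceeded 1 CPM, so the sum was higher in the line that is not labelled ovarian, although EPCAM and CDH1 exceeded 1 CPM only in TOV-112D. The ovarian label of TOV-112D is thus not borne out by this list. Of the osteoblast lineage markers, RUNX2 and SPP1 exceeded 1 CPM in both Saos-2 groups and COL1A1 in p53-null, while SP7 had no count in either group. No source says that replicates came from separate cultures, so p-values measure the spread between these libraries, which may be technical.

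Per unit of transcript length, RELA led the 10 genes in DMSO-treated TOV-112D cells. Its level was 26.4 ± 0.3 CPM per kilobase (SD, n = 2), where the length is that of the representative (MANE Select) transcript in GENCODE release 44. NFKB1 followed at 13.4 ± 0.5, then NFKBIA at 11.9 ± 0.7, RELB at 10.2 ± 0.2, NFKB2 at 9.27 ± 0.40 and NFKBIE at 6.21 ± 0.70 CPM per kilobase. The feedback genes were far lower, TNFAIP3 at 0.521 ± 0.013 and BIRC3 at 0.377 ± 0.024. The ranges of neighbours in this order did not overlap among these 8 genes, with only 2 libraries. By the deposited TPM, NFKBIA (23.2 ± 1.0) and NFKB1 (22.5 ± 1.6) could not be separated. By that measure RELB (17.5 ± 0.4) stood below NFKB2 (20.3 ± 0.5), and BIRC3 (1.35 ± 0.35) above TNFAIP3 (0.962 ± 0.016). The TPM of TNFAIP3 covers part of its counts.

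The order was another one in Saos-2. In p53-null cells NFKB2 led at 36.1 ± 2.4 CPM per kilobase (SD, n = 3), followed by RELB at 29.7 ± 2.6 and RELA at 27.1 ± 2.7, and the ranges of RELB and RELA overlapped. NFKB1 stood at 20.2 ± 1.8. NFKBIE, NFKBIA and BIRC3 formed a group of overlapping neighbours at 16.6 ± 1.0, 15.6 ± 1.7 and 14.8 ± 0.6. TNFAIP3 was again low at 1.45 ± 0.12. The place of RELB depends on the length used, that of RELB-201. This transcript held on average 6.45% of the TPM of RELB in p53-null cells and 79.8% in DMSO-treated TOV-112D cells. By the deposited TPM, RELB (21.0 ± 4.8) stood below RELA (42.0 ± 7.9) and NFKB1 (31.7 ± 4.5) in p53-null cells. The TPM of RELB covers part of its counts. By CPM per kilobase, BIRC3, which encodes the ubiquitin ligase cIAP2, thus ranked beside the IkB genes in Saos-2 and last of the 8 in TOV-112D. The 2 lines were scaled apart and differ in tissue, treatment and time, and no test was made between them.

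**Figure D1:**
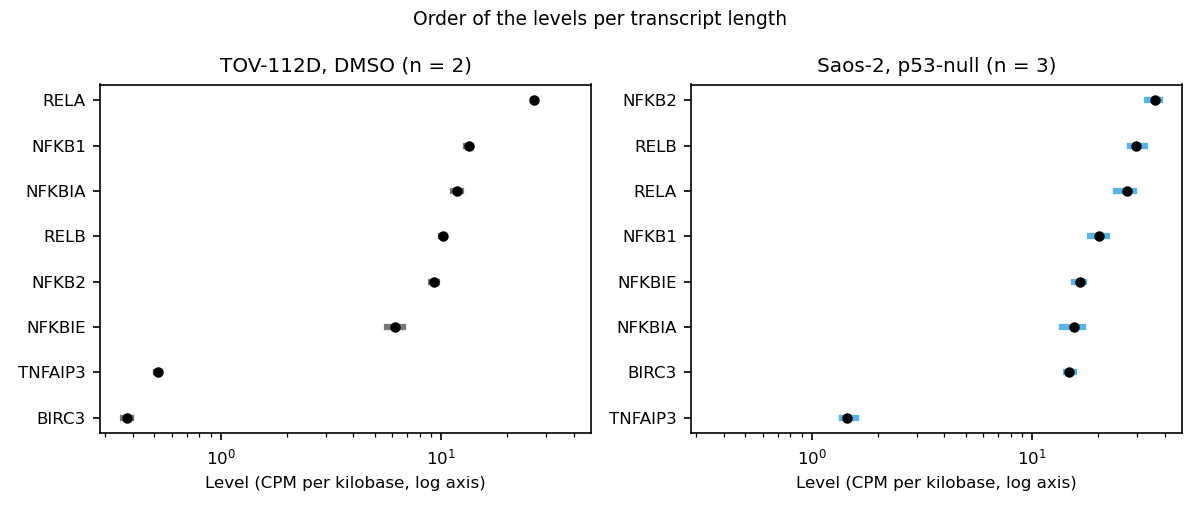
Level of the 8 detected genes in CPM per kilobase of transcript on a log axis, in DMSO-treated TOV-112D (2 libraries) and p53-null Saos-2 (3 libraries). Points are means and bars run from the lowest to the highest library. BIRC3 is last in TOV-112D, at 0.377, and lies at 14.8 in Saos-2.

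CXCL8 and IL6, the secreted cytokines often used as readouts of NF-kB, were at or near 0 counts. IL6 had 0 counts in each of the 12 libraries. CXCL8 had 1 count in UCI-1014 replicate 1, 3 in p53-WT replicate 1 and 1 in p53-WT replicate 2, and 0 in the other libraries. A count of 0 allows a level of up to 3 counts, which was between 0.142 and 0.18 CPM in the shallowest library of each group and covers counting error only. Neither gene passed the filter on low counts in either line, so 8 of the 10 genes were tested.

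The promoters were searched for a strict form of the DNA motif that NF-kB dimers bind. RefSeq promoters (GRCh38.p14, from 250 bases before to 50 bases after the start) were at hand for 8 of the 10 genes, all but NFKBIE and RELB. The NF-kB consensus motif GGGRNNYYCC, 10 bases long and searched on both strands, with overlapping matches allowed, was found in 11.3% of all 35116 such promoters. In it R is A or G, Y is C or T and N is any base. Of the 12 promoters of these genes, 7 held it, and they belonged to 6 genes: NFKBIA, TNFAIP3, NFKB1, NFKB2, BIRC3 and IL6. RELA and CXCL8 had no match to this pattern in the window. Motifs that depart from the pattern at any base were not counted, so the lack of a match does not show that a gene lacks an NF-kB motif. Shown first are the promoters of the feedback genes, whose levels moved most with UCI-1014, then NFKBIA and NFKB1, and last the silent pair. Capitals mark the motif matches, and each sequence runs 5′ to 3′ on the gene's strand.
TNFAIP3 (chr6:137867009-137867308, plus strand): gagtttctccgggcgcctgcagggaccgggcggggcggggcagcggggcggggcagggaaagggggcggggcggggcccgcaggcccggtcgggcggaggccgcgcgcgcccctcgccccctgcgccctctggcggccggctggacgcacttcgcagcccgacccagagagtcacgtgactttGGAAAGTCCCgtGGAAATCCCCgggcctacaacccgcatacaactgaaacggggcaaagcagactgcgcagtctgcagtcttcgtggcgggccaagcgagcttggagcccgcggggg
BIRC3 (chr11:102317234-102317533, plus strand): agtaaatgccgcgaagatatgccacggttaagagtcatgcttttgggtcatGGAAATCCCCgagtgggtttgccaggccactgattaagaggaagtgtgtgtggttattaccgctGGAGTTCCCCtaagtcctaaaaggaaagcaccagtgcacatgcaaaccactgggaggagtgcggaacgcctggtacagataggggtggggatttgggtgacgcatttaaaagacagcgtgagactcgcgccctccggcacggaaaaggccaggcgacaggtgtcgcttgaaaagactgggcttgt
NFKBIA (chr14:35404700-35404999, minus strand): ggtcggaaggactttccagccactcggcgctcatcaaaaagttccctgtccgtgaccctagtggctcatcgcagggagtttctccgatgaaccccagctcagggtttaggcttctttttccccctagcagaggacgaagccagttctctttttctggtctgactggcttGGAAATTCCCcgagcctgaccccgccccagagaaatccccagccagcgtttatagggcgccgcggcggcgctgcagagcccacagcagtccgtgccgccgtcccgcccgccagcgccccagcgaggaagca
NFKB1 (chr4:102501109-102501408, plus strand): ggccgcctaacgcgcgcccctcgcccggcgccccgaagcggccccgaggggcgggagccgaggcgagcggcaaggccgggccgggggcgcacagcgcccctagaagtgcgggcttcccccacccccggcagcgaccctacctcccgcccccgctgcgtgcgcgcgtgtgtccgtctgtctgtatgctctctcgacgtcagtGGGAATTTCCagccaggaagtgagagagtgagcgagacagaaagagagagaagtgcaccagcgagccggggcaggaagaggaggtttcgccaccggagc
IL6 (chr7:22726950-22727249, plus strand): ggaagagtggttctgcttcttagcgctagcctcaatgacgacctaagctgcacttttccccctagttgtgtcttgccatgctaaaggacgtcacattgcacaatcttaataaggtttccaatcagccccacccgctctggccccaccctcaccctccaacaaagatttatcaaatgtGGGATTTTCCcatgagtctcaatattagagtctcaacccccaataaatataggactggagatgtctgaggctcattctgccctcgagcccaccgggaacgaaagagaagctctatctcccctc
CXCL8 (chr4:73740319-73740618, plus strand): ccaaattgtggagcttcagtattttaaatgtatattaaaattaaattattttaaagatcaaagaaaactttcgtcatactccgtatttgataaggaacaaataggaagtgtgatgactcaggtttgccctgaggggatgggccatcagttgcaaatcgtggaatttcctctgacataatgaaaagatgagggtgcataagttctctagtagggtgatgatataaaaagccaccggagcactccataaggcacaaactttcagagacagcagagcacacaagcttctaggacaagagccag

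The paired motifs of TNFAIP3 begin 67 and 55 bases before its start, and those of BIRC3 199 and 135 bases before. NFKBIA holds 1 match at 81 bases and NFKB1 1 at 49 bases before the start. IL6 holds a match 73 bases before its start and gave no count. A match describes the letters of the window and is not evidence of binding.

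After 3 h of UCI-1014, all 8 tested genes rose in TOV-112D cells. The feedback genes TNFAIP3 and BIRC3 rose most, 6.92-fold and 4.79-fold, the IkB genes NFKBIE and NFKBIA rose 1.81-fold and 1.62-fold, and the subunit genes rose between 1.18-fold and 1.46-fold. Against this count, 22.7% of the 14987 genes tested were higher at an adjusted p under 0.05 (edgeR's quasi-likelihood test with Benjamini-Hochberg adjustment) and 21.5% were lower. The median log2 fold change was 0.62 over the 8 genes and -0.01 over all genes tested. Of all called genes 51.4% were higher, and 30.0% without TMM factors. Where groups are said below not to overlap, the share of all genes without overlap was not counted. Such statements describe the few libraries at hand.

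TNFAIP3 lies at chr6:137867214-137883314 (GRCh38), where the lncRNA WAKMAR2 overlaps it on the other strand. Its level was 2.47 and 2.38 CPM in the DMSO libraries, 6.42 and 6.37 CPM with UCI-1001, and 18.8 and 15.0 CPM with UCI-1014. The 3 groups did not overlap. Relative to DMSO the log2 fold change was 2.79 ± 0.16 (SE) with UCI-1014 (adjusted p = 4.21e-07) and 1.40 ± 0.17 with UCI-1001 (adjusted p = 0.00065). These values rest on 44 and 48 counts in the DMSO libraries. Whether the counting used strand is not given in the sources used here, so reads of WAKMAR2 cannot be told apart from those of TNFAIP3. With limma on log2(TPM + 0.5), over matched transcripts that cover part of its counts, the log2 fold change with UCI-1014 was smaller, at 1.90 (adjusted p = 0.00497).

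BIRC3 lies at chr11:102317484-102339403 and is also overlapped by a lncRNA on the other strand. It was at 2.47 and 2.71 CPM with DMSO, 3.16 and 4.22 CPM with UCI-1001 and 11.2 and 13.6 CPM with UCI-1014. All libraries of UCI-1014 lay above those of both other groups. The rise over DMSO had a log2 size of 2.26 ± 0.18 (SE, adjusted p = 5.57e-06), and 1.33 (adjusted p = 0.0145) with limma on log2(TPM + 0.5), again over part of the counts. With UCI-1001 the log2 difference was 0.51, with a 95% interval from 0.05 to 0.97 and an adjusted p of 0.142. Among all genes, 4.54% were higher with UCI-1014 at a log2 fold change over 1, and of the 8 genes TNFAIP3 and BIRC3 were.

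NFKBIA encodes IkBα, an inhibitor whose gene NF-kB itself switches on, at chr14:35401079-35404749. It stood at 17.7 and 19.3 CPM with DMSO, 16.7 and 15.9 CPM with UCI-1001 and 29.5 and 30.4 CPM with UCI-1014. The UCI-1014 libraries were above all others, and the UCI-1001 libraries were below those of DMSO. The difference from DMSO was a log2 of 0.69 ± 0.08 (SE) for UCI-1014 (adjusted p = 3.97e-05) and -0.18 for UCI-1001, with a 95% interval from -0.36 to 0 and an adjusted p of 0.174.

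NFKBIE encodes IkBε, a related inhibitor, at chr6:44258166-44265788. Its levels were 15.7 and 13.4 CPM with DMSO, 18.0 and 19.5 CPM with UCI-1001 and 24.3 and 28.2 CPM with UCI-1014, so the groups were stepped and did not overlap. The log2 fold change was 0.85 ± 0.10 (SE) for UCI-1014 (adjusted p = 9.51e-05). For UCI-1001 it was 0.37 with an adjusted p of 0.0508, just outside the threshold.

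The subunit genes moved less. They lie at chr19:45001461-45038192 (RELB), chr11:65653599-65663090 (RELA, overlapped on the other strand by the lncRNA RELA-DT), chr10:102394110-102402524 (NFKB2) and chr4:102501330-102617302 (NFKB1). RELB, the partner of the processed NFKB2 product in the non-canonical arm, was at 23.4 and 22.6 CPM with DMSO and 32.3 and 34.9 CPM with UCI-1014 (log2 fold change 0.55 ± 0.08 SE, adjusted p = 0.000201). RELA, which carries the main activation domain of canonical NF-kB, was at 66.0 and 67.0 CPM with DMSO and 82.5 and 81.5 CPM with UCI-1014 (0.30 ± 0.05, adjusted p = 0.000478). Neither gene overlapped between the groups. With limma on log2(TPM + 0.5), the log2 difference of RELA was 0.205 and not called (adjusted p = 0.0784).

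NFKB2 rose from 28.8 and 27.1 CPM to 32.4 and 36.0 CPM (0.29 ± 0.07, adjusted p = 0.00797), and NFKB1 from 55.6 and 52.8 CPM to 64.8 and 63.4 CPM (0.24 ± 0.06, adjusted p = 0.00575). These last calls were the least firm of the 8. Without DMSO replicate 2 the adjusted p was 0.0721 for NFKB2 and 0.0677 for NFKB1, and without UCI-1014 replicate 2 it was 0.0724 for NFKB2. Without TMM factors, which lowers the median of all genes to -0.15, NFKB1 (0.10) and NFKB2 (0.15) were not called, and both kept a positive log2 difference.

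The marker CD68, a lysosomal protein used to mark macrophages, rose with UCI-1014 too, from 35.6 to 59.1 CPM (log2 fold change 0.73, adjusted p = 7.52e-06). The summed level of the 7 immune cell markers was 37.6 to 38.5 CPM with DMSO and 58.5 to 64.6 CPM with UCI-1014. The pan-leukocyte marker PTPRC was at 2.33 CPM with DMSO and 2.06 CPM with UCI-1014, and the lymphocyte markers CD3E and MS4A1 had no count in any group. The other markers of myeloid cells were too low to be tested. From DMSO to UCI-1014, CD14 went from 0.03 to 0.34 CPM, LYZ from 0 to 0.03 CPM and CSF1R from 0.107 to 0 CPM. These libraries came from a cultured cell line, not from a tissue with immune cells. The part of these markers in the rises above was not tested. In bulk RNA a change in the number of cells of a type and a change in the RNA per cell cannot be told apart.

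**Figure D2:**
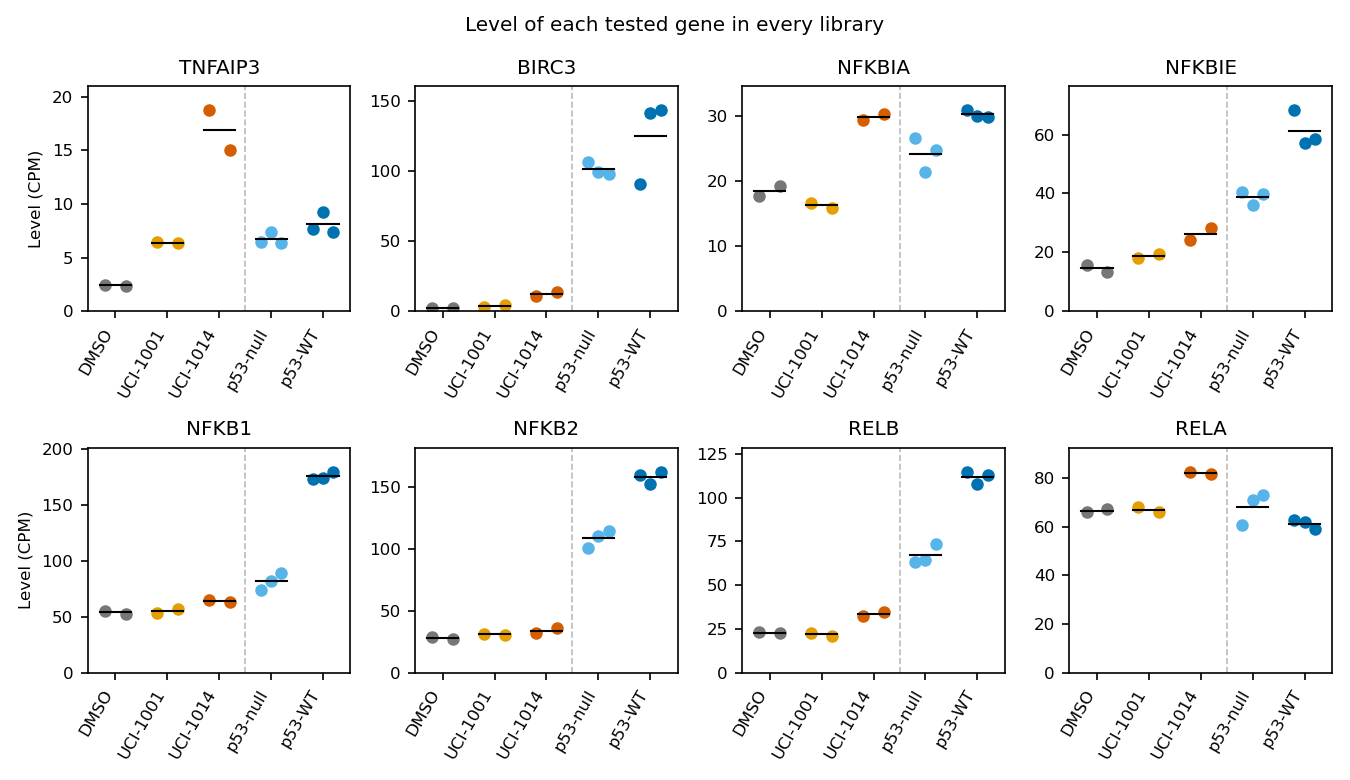
Level of the 8 tested genes in CPM, 1 point per library, with a line at the group mean. The dashed line separates TOV-112D from Saos-2, which were scaled apart. The UCI-1014 points of TNFAIP3 (15.0 and 18.8) and BIRC3 (11.2 and 13.6) lie above the DMSO points, and the p53-WT points of NFKB1 (173.4 to 179.8) lie above those of p53-null.

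With UCI-1001, TNFAIP3 was the 1 gene of the 8 that rose, 2.63-fold. This call was lost with limma on log2(TPM + 0.5), where the log2 difference was 0.98 (adjusted p = 0.156) over matched transcripts that cover part of the counts of TNFAIP3. NFKBIE joined it under 3 other settings. Among all genes tested 7.75% were higher and 5.22% lower, and 1.15% were higher at a log2 fold change over 1, as TNFAIP3 was. The median log2 difference over the 8 genes was 0.09, against -0.002 over all genes. The subunit genes lay close to DMSO: the 95% intervals of the log2 difference were -0.09 to 0.12 for RELA, -0.11 to 0.14 for NFKB1, -0.24 to 0.10 for RELB and 0 to 0.32 for NFKB2.

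The compounds were set side by side at 3 h, as 1 pair. The doses used for the RNA cannot be matched from the sources used here, and the comparison is one of the treatments as applied. UCI-1014 was higher than UCI-1001 for 7 of the 8 genes, against 16.2% higher and 11.5% lower among all genes tested, 27.7% in all. Of all called genes 58.6% were higher, and 25.4% without TMM factors. The log2 difference was 1.75 ± 0.17 (SE) for BIRC3 (adjusted p = 6.26e-05), 1.40 ± 0.14 for TNFAIP3 (adjusted p = 5.54e-05) and 0.88 ± 0.08 for NFKBIA (adjusted p = 2.52e-05). It was 0.62 for RELB, 0.49 for NFKBIE, 0.29 for RELA and 0.22 for NFKB1, with adjusted p between 0.000222 and 0.0145. NFKB2 did not pass, at 30.9 and 31.5 CPM with UCI-1001 and 32.4 and 36.0 CPM with UCI-1014, with a 95% interval of the log2 difference from -0.02 to 0.29. The call of NFKB1 was lost without UCI-1001 replicate 1 (adjusted p = 0.124), without UCI-1014 replicate 1 (adjusted p = 0.0633) and without TMM factors (adjusted p = 0.191). With limma on log2(TPM + 0.5), NFKBIE (adjusted p = 0.071), TNFAIP3 (0.0882), RELA (0.0881) and NFKB1 (0.204) were not called. Both contrasts with DMSO share their control libraries.

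**Figure D3:**
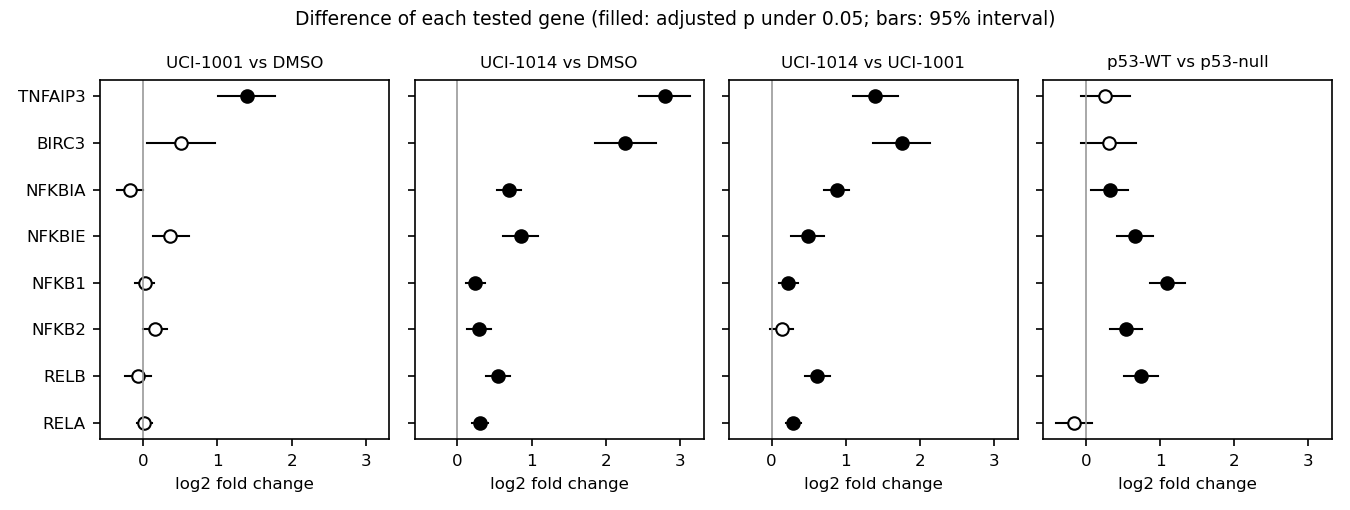
Log2 fold change of the 8 tested genes in the 4 comparisons, with 95% intervals. Filled points passed an adjusted p of 0.05. With UCI-1014 all points are filled, led by TNFAIP3 at 2.79, and with UCI-1001 TNFAIP3 at 1.40 is the filled one.

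In Saos-2, cells with p53-WT had higher levels of NFKB1, RELB, NFKBIE, NFKB2 and NFKBIA than p53-null cells, 5 of the 8 genes tested. Genes higher in p53-WT made up 32.9% of the 15076 genes tested and those lower 32.1%, so a call in this contrast is common. The median log2 fold change was 0.43 over the 8 genes and -0.01 over all genes.

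NFKB1, whose product is processed to p50, changed most. Its level was 74.5, 82.5 and 89.2 CPM in p53-null and 173.4, 173.7 and 179.8 CPM in p53-WT. Every p53-WT library was above every p53-null library, and the log2 fold change was 1.10 ± 0.10 (SE, adjusted p = 8.34e-06). RELB was at 63.1, 64.3 and 73.8 CPM in p53-null and 114.8, 107.7 and 112.9 CPM in p53-WT (0.74 ± 0.10, adjusted p = 0.000141).

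NFKBIE was at 40.5, 36.2 and 39.8 CPM in p53-null and 68.3, 57.2 and 58.6 CPM in p53-WT (0.66 ± 0.11, adjusted p = 0.000449). NFKB2 was at 100.7, 110.9 and 114.6 CPM and at 160.3, 152.4 and 162.8 CPM (0.54 ± 0.10, adjusted p = 0.000741). The groups did not overlap for either gene, and the share of all genes without overlap was not counted. With limma on log2(TPM + 0.5), the log2 difference of NFKB2 was 0.23 and not called (adjusted p = 0.181).

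NFKBIA differed least among those called, at 26.7, 21.4 and 24.8 CPM in p53-null and 30.9, 30.0 and 29.9 CPM in p53-WT (0.32 ± 0.11, adjusted p = 0.0281). The call was lost when p53-null replicate 2 or 3 or p53-WT replicate 2 or 3 was left out, with adjusted p between 0.0554 and 0.125. Without TMM factors, which lower the median of all genes to -0.16, its log2 difference was 0.17 and not called, and with limma on log2(TPM + 0.5) it was 0.06 and not called (adjusted p = 0.685).

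TNFAIP3, BIRC3 and RELA were not called. TNFAIP3 was at 6.51, 7.44 and 6.40 CPM in p53-null and 7.64, 9.28 and 7.42 CPM in p53-WT, with overlapping groups and a 95% interval of the log2 difference from -0.07 to 0.59. BIRC3 was at 106.6, 99.9 and 98.4 CPM in p53-null and 91.1, 142.1 and 143.8 CPM in p53-WT. Its p53-WT replicate 1 lay below all p53-null libraries, and the log2 difference was 0.31 with an adjusted p of 0.128. Without p53-WT replicate 1 it was 0.49 with an adjusted p of 0.000663.

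RELA was at 60.5, 71.0 and 73.1 CPM in p53-null and 62.7, 61.7 and 59.0 CPM in p53-WT, with a log2 difference of -0.16 and an adjusted p of 0.218. Without p53-null replicate 1 it was -0.24 (adjusted p = 0.0413), and without replicate 1 of both groups -0.25 (adjusted p = 0.00351). In that last setting 7 of the 8 genes were called, BIRC3 among the 6 that were higher and RELA the 1 that was lower. RELA was also called lower with limma on log2(TPM + 0.5) (-0.45, adjusted p = 0.0366) and without TMM factors (-0.31, adjusted p = 0.036).

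The transcript NFKB1-205 took a smaller share of NFKB1 in DMSO cells than in the other groups. The share of the gene's deposited TPM assigned to NFKB1-205 was 10.9% and 10.3% in the DMSO libraries, 30.3% and 24.4% with UCI-1001 and 27.7% and 28.0% with UCI-1014, and 52.7% to 59.8% in Saos-2. The DMSO libraries were below all others, while p53-null and p53-WT overlapped. The representative transcript NFKB1-201 held 60.2% and 67.2% with DMSO, 53.7% and 62.4% with UCI-1001, which overlapped DMSO, 49.8% and 57.8% with UCI-1014, and 30.7% to 39.2% in p53-null. NFKB1-202 held 25.9% and 20.5% with DMSO, 11.6% and 7.39% with UCI-1001, and 20.7% and 6.75% with UCI-1014, so its replicates differed widely. These shares are estimates of how reads common to several transcripts were divided, and no test was made on them.

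**Figure D4:**
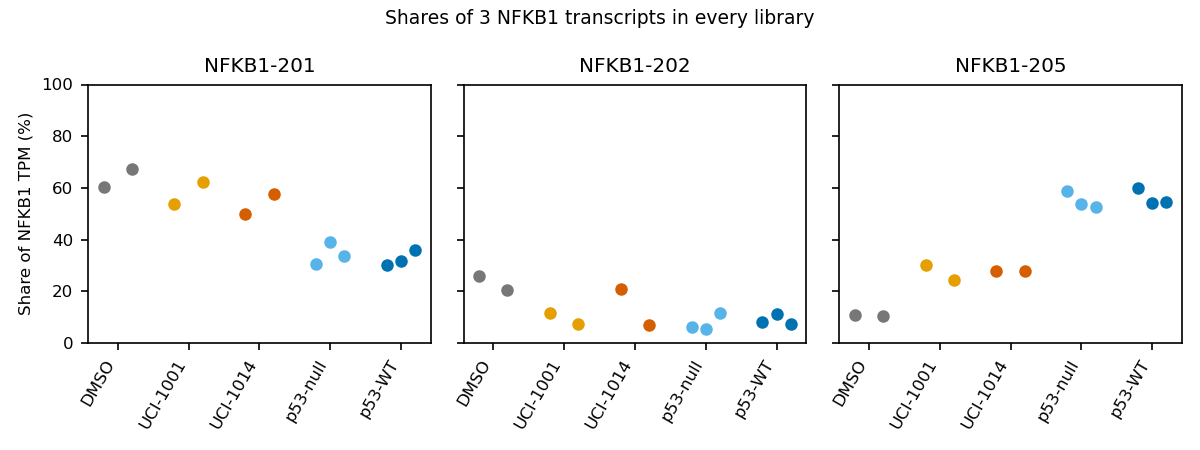
Share of NFKB1 TPM assigned to 3 of its transcripts, in percent, 1 point per library. NFKB1-205 holds 10.3% and 10.9% in the DMSO libraries and 24.4% to 30.3% in those of the compounds.

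Around these 10 genes, 85 other genes of the pathway were followed in lists by role. None of the 8 ligand genes passed the filter on low counts in either line. TNF itself had 4 counts over the 4 libraries of the compounds and 0 in those of DMSO. In UCI-1014 against DMSO, 26 of the 59 genes tested were higher and 10 lower, with a median log2 fold change of 0.29, beside 22.7% higher and 21.5% lower among all genes. In UCI-1001 against DMSO 14 were higher and 6 lower, with a median of 0.06, beside 7.75% and 5.22% of all genes. In p53-WT against p53-null, 32 of 65 were higher and 13 lower, with a median of 0.31. In that contrast 69.2% of the list was called and 65.0% of all genes.

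Among the kinases, 7 of 11 were higher with UCI-1014 and 2 lower, 81.8% called beside 44.2% of all genes. With UCI-1001 4 of 11 were higher and 0 lower, 36.4% called beside 13.0% of all genes. MAP3K14, the NIK kinase of the non-canonical arm, was at 21.6 ± 2.1 CPM (SD, n = 2) in DMSO cells, 48.3 ± 3.9 after UCI-1001 and 126.7 ± 4.2 after UCI-1014, and both rises passed (adjusted p = 1.83e-05 and 5.42e-09). It did not pass in p53-WT against p53-null (129.5 CPM in p53-WT and 114.9 CPM in p53-null, adjusted p = 0.188). TBK1, an IkB kinase relative, rose 1.74-fold, TAB2 1.44-fold and MAP3K7 (TAK1) 1.22-fold with UCI-1014. In p53-WT 3 of 11 kinases were higher and 2 lower, 45.5% called, a share below the 65.0% of all genes. TAB3 rose 10.7-fold and IKBKB, a catalytic IkB kinase, 2.72-fold, while CHUK, the other catalytic kinase, fell by 0.43 on the log2 scale.

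Of the 5 other Rel and IkB genes, 2 were higher with UCI-1014 (40.0% called beside 44.2% of all genes), REL 1.63-fold and the inhibitor NFKBIB 1.70-fold. With UCI-1001 NFKBIB rose 1.21-fold and BCL3, a nuclear IkB protein, fell by 0.41 on the log2 scale. In p53-WT 2 rose, NFKBIZ 1.46-fold and BCL3 1.41-fold, and 2 fell, NFKBID by 1.68 and NFKBIB by 0.70 on the log2 scale, so that 80.0% were called beside 65.0% of all genes. NFKBIB thus rose with UCI-1014 and fell in p53-WT.

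Of 20 adaptors and ubiquitin enzymes, 7 were higher and 6 lower with UCI-1014, 65.0% called beside 44.2% of all genes. IRAK2, a kinase-like adaptor of interleukin-1 signalling, rose 3.55-fold, the deubiquitinase CYLD 1.89-fold, the TNFAIP3 cofactor TAX1BP1 1.74-fold and the deubiquitinase OTULIN 1.64-fold. The 6 lower genes, outside the naming rule, were RIPK1, MYD88, IRAK1, TNIP1, RNF31 and SHARPIN, with log2 fold changes from -0.42 (RIPK1) to -0.24 (SHARPIN). With UCI-1001 4 were higher and 5 lower (45.0% called beside 13.0% of all genes), with IRAK2 1.98-fold and CYLD 1.30-fold higher. RNF31, a subunit of the ubiquitin ligase complex LUBAC, fell by 0.27 on the log2 scale with UCI-1001 (adjusted p = 0.0295), and the others lower were TRAF3, RIPK1, IRAK1 and TNIP1. In p53-WT 8 were higher and 2 lower, a share called below the 65.0% of all genes. TRAF1 rose 3.10-fold, TNIP1 2.62-fold and CYLD 2.34-fold, while TRAF2 fell by 1.53 on the log2 scale.

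Receptors were higher in 6 of 12 cases with UCI-1014, a share called that is near the 44.2% of all genes. IL6R rose 3.84-fold, the death receptor TNFRSF10B 2.21-fold, TNFRSF12A 1.98-fold and TNFRSF1A, the main TNF receptor, 1.57-fold. With UCI-1001 4 of 12 receptors were higher and 0 lower, 33.3% called beside 13.0% of all genes. In p53-WT 7 of 12 were higher and 4 lower (91.7% called beside 65.0% of all genes), with TLR3 6.30-fold and TNFRSF10B 4.12-fold higher and TNFRSF12A lower by 0.96 on the log2 scale.

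Other NF-kB target genes were fewer in TOV-112D, where 11 of 24 could be tested. With UCI-1014 4 were higher and 2 lower, 54.5% called beside 44.2% of all genes. PTGS2, which encodes the prostaglandin enzyme COX-2, was at 6.78 ± 0.54 CPM (SD, n = 2) in DMSO cells, 47.1 ± 11.8 after UCI-1001 and 154 ± 23 after UCI-1014. It was the 1 gene of this list that rose with UCI-1001 (9.09% called beside 13.0% of all genes). The cytokine gene LIF rose 3.29-fold and IER3 1.79-fold with UCI-1014, and BCL2L1 fell by 0.31 on the log2 scale. In p53-WT 12 of 17 tested were higher and 3 lower (88.2% called beside 65.0% of all genes), with EBI3 4.69-fold, IRF1 4.06-fold, LIF 3.90-fold and CFLAR 2.33-fold higher. The chemokine CXCL2 (570.0 CPM in p53-null, 379.5 CPM in p53-WT) and the adhesion gene ICAM1 (20.3 and 14.2 CPM) were among those lower in p53-WT, and were chosen after their values were seen.

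**Figure D5:**
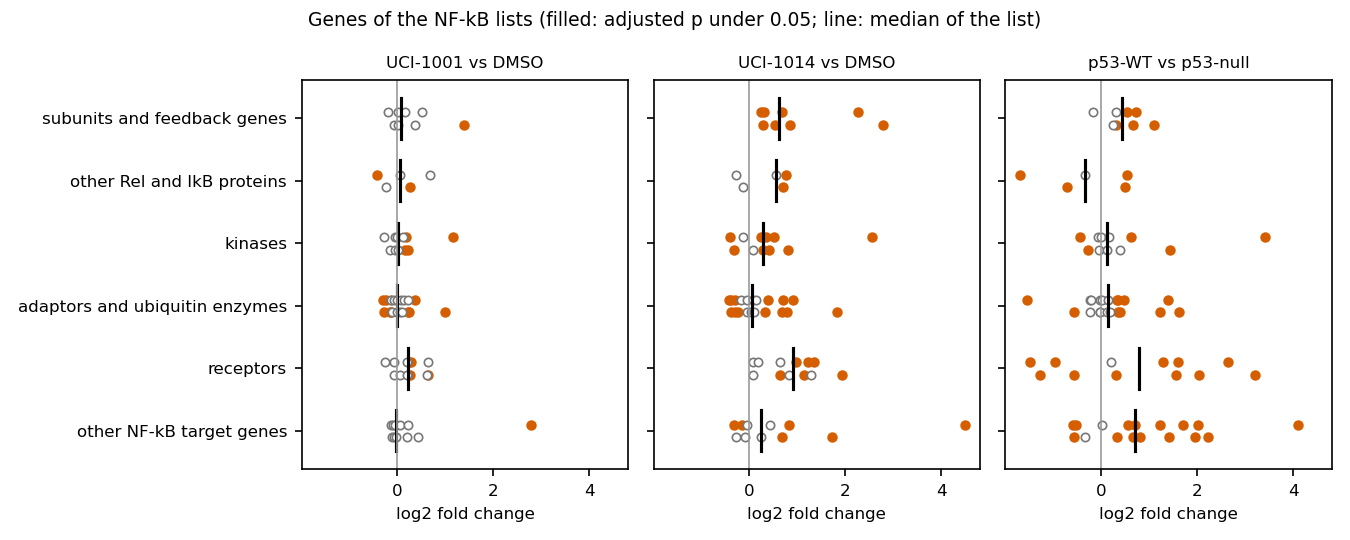
Log2 fold change of each tested gene of the NF-kB lists in 3 comparisons, 1 point per gene, filled where the adjusted p was under 0.05, with a line at the median of the list. With UCI-1014 the 8 subunit and feedback genes lie to the right of 0, with a median of 0.62.

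The 3 genes nearest to NFKBIA in their log2 fold changes (each compound against DMSO, and p53-WT against p53-null) were NOCT, CLK3 and FAM184A, at distances of 0.262, 0.264 and 0.273 among 8690 candidates. Distance is Euclidean over the 3 comparisons, of which 2 share the DMSO libraries. NOCT differed by 0.03, 0.82 and 0.40 in turn, where NFKBIA differed by -0.18, 0.69 and 0.32.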

How the data were processed

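RNA from 12 libraries was extracted with a column kit and sequenced by a service provider. Per the labels and the study's methods, the authors quantified reads with kallisto 0.48.0 against GRCh38, and tested genes with DESeq2 1.38.3. The deposited transcript files hold estimated counts and TPM (transcripts per 1000000). The deposited gene table holds unscaled whole counts per Ensembl identifier, which the authors derived from the transcript estimates. The annotation release is not given in the sources used here. Transcript names and gene positions came from GENCODE release 44, in which 165858 of 187626 transcripts matched. Matched transcripts covered all counts of NFKBIA, NFKBIE, NFKB2 and RELA and at least 99.2% of those of NFKB1. They covered as little as 32.0% for RELB, 52.6% for TNFAIP3 and 69.4% for BIRC3. TPM levels are therefore given mainly among the first 5, and for the other 3 only in DMSO, apart from RELB in p53-null. The limma fit on TPM covers part of the counts of those 3.

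Genes were tested with edgeR 4.0.16 (TMM, filterByExpr, quasi-likelihood test, Benjamini-Hochberg adjustment over all genes, threshold 0.05), in 1 fit per cell line. Standard errors are the log2 fold change divided by the root of F. Alternatives were DESeq2 1.42.0, RLE factors, no filter, other sets of libraries, a replicate block and limma 3.58.1 on log2(TPM + 0.5). The scripts were tested on simulated data. Named were all 10 genes, up to 4 called genes per list and comparison with the smallest adjusted p and a mean of at least 1 CPM, CDKN1A, and the 3 genes nearest to NFKBIA among those of at least 10 CPM in both lines. The members and lists were chosen with earlier results of these data known. Some genes that this rule picks and some markers are not reported here.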

Additional observations from a re-analysis of the deposited data

How the results depend on the processing

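Of 424 log2 fold changes of the 8 tested genes under alternative settings, 392 kept their side of the threshold, 383 of them with the same direction, while 23 lost the call and 9 gained one. The 9 values that changed sign were of RELA, NFKB1 and BIRC3 for UCI-1001 against DMSO and of TNFAIP3 and BIRC3 for p53-WT against p53-null, none called in either setting. The count of genes called for UCI-1001 against DMSO was 1. It was 2 with RLE factors, 2 with no filter on low counts and 2 with only the 2 groups compared, NFKBIE being the gene added, and 0 with limma on log2(TPM + 0.5), where 2 passed at an unadjusted p under 0.05. The count for UCI-1014 against UCI-1001 was 7, and 3 with limma on TPM. That fit also lost NFKB1 and RELA for UCI-1014 against DMSO (adjusted p = 0.063 and 0.0784) and NFKBIA and NFKB2 for p53-WT, and the cause was not tested. Leaving out each library in turn gave 1 for UCI-1001 against DMSO, 6 to 8 for UCI-1014 against DMSO, 6 to 7 for UCI-1014 against UCI-1001 and 4 to 6 for p53-WT against p53-null. Where this left 1 library in a group, the lone library was assumed to vary like the other groups. Library sizes without TMM factors, chosen after seeing the data, moved the share of called genes that were higher, as given beside both comparisons of UCI-1014.

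Whether equal replicate numbers mark paired libraries could not be settled. Deviations from the group means of libraries with the same number correlated at 0.0531, -0.0345 and -0.133 in TOV-112D. With 2 libraries in a group these deviations mirror each other, so they cannot decide on pairing. In Saos-2 they correlated at 0.127, 0.0656 and 0.053, all positive, though p53-null replicate 2 correlated best with p53-WT replicate 3. With the replicate block, 1, 8, 7 and 5 genes were called in the 4 comparisons, as without it, and the count over all genes went from 1945 to 1455 for UCI-1001 against DMSO. For UCI-1014 against UCI-1001 in their 4 libraries, a crossed block, added after seeing the data, called 4659 genes and the uncrossed block 2942, where NFKB1 lost its call (0.22, adjusted p = 0.0594) and 6 of the 8 genes were called.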
